A study of Xenopus laevis with 11 samples.

Results

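H3K4me3, the trimethylation of lysine 4 of histone H3, was mapped by chromatin immunoprecipitation and sequencing (ChIP-seq) in gastrulating Xenopus laevis, using whole embryos of NF stage 10.5 (Nieuwkoop and Faber's table of normal development). The 2 H3K4me3 samples, out of 11 samples in the series, were replicate 1 and replicate 2, and all their peaks on chromosomes named L or S were taken. These were 28926 of 32821 replicate 1 peaks, 24154 of 27267 replicate 2 peaks and 22191 of 24948 intervals of the list deposited for the whole series. The protocol gives 35 to 90 pooled embryos, fixed in formaldehyde, sonicated and precipitated with the same lot of an Abcam antibody. No strain, treatment or clutch is labelled, so the spread between the replicates may be technical. Because whole embryos were pooled, the peaks are those of all embryonic cells together. The lists hold positions only, so peak number and width are not levels of the mark, and depth is unknown.

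H3K4me3 is laid down by the SET1 and MLL methyltransferase complexes and is found on the nucleosomes on both sides of transcription start sites, mostly at CpG-rich promoters. A start site can itself be depleted of nucleosomes, and close promoters can share a single marked stretch, so one promoter region can be seen as a single block or as several. Broad domains of the mark are known from genes that specify cell identity and development. In Xenopus the mark is gained on many promoters around the time the embryo's own genome is switched on, shortly before gastrulation. Positions are given 1-based in the build of the files, which no source used here names. No gene annotation or sequence of that build was used, so regions are named by position alone.

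Both replicates had sharp maxima of narrow peaks and a broad spread of wider ones. In replicate 1 the width quartiles were 543, 1154 and 1915 bp, and in replicate 2 they were 611, 1094 and 1726 bp. The shapes differed: bins of 25 bp in replicate 1 ran nearly level from 500 bp to past 1400 bp, whereas replicate 2 had a dip of 207 peaks at 475 to 499 bp and a maximum of 373 peaks at 900 to 924 bp. Both lists also had a sharp pile of peaks at their narrowest width. It was 173 bp in replicate 1, with 476 peaks (1.65%), and 159 bp in replicate 2, with 407 peaks (1.69%). The tallest bins were 175 to 199 bp in replicate 1, with 816 peaks, and 150 to 174 bp in replicate 2, with 768 peaks. A further narrow maximum stood at 275 to 299 bp in replicate 1, with 655 peaks, and at 250 to 274 bp in replicate 2, with 660 peaks. Peaks of at least 3000 bp numbered 2715 in replicate 1 (9.39%) and 1654 in replicate 2 (6.85%), and the widest were 14379 bp and 10821 bp.

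The shortest gap between neighbouring peaks followed the narrowest width in each list. It was 693 bp in replicate 1 and 637 bp in replicate 2, in each case 1 base more than 4 times the narrowest width. Gaps below these lengths do not occur, so nothing can be read from the lists about breaks in the mark that are shorter. Gaps of 637 to 692 bp can be seen in replicate 2 but not in replicate 1. The shares of groups that were split are therefore also given with all gaps under 693 bp closed in both lists, an alternative chosen after seeing the data.

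**Figure D1:**
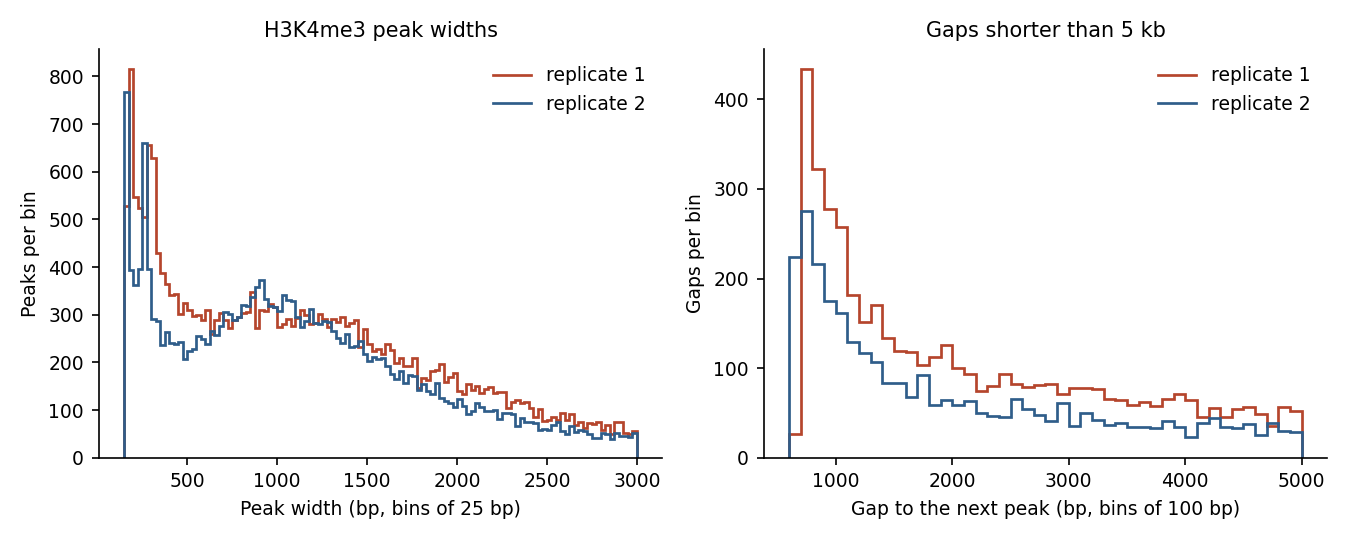
Left, number of H3K4me3 peaks (y axis) by width (x axis, bp, bins of 25 bp) and right, number of gaps between neighbouring peaks (y axis) by length (x axis, bp, bins of 100 bp) on the L and S chromosomes, in red for replicate 1 and blue for replicate 2. The tallest width bins are 175 to 199 bp in replicate 1 and 150 to 174 bp in replicate 2. Further narrow maxima stand at 275 to 299 bp in replicate 1 and at 250 to 274 bp in replicate 2, and gaps begin at 693 and 637 bp.

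Matching of the replicates was close to one-to-one wherever both had a call. Overlapping peaks were joined into groups, and 21439 of 30889 groups held peaks of both replicates. Of these, 20731 groups, or 96.7% (95% interval 96.4 to 96.9%), held exactly 1 peak of each. The replicate 1 peak was in pieces and the replicate 2 peak whole in 64 groups, or 0.299% (0.234 to 0.381%). The opposite, a whole replicate 1 peak over several replicate 2 peaks, was found in 634 groups, or 2.96% (2.74 to 3.19%). This share was 1.54% with neighbours under 1000 bp apart joined and 1.80% among peaks of at least 500 bp. Several peaks of both replicates were chained together in 10 groups. Of the groups split in one replicate alone, 90.8% (88.5 to 92.8%) were thus split in replicate 2. The remaining groups were 7411 peaks of replicate 1 alone and 2039 of replicate 2 alone.

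In the one-to-one groups, replicate 1 reached further out on both sides by about the same distance. Its start lay at a median of -53 bp relative to replicate 2 (95% interval -55 to -51 bp, quartiles -207 and -4 bp), and its end at 55 bp (53 to 57 bp, quartiles 5 and 208 bp). Replicate 1 was the outer one at 76.8% of starts and at 76.9% of ends. Median widths were 1433 bp in replicate 1 and 1185 bp in replicate 2, and replicate 1 was wider in 80.2% of groups, with a median difference of 162 bp (156 to 168 bp). The centres, in contrast, had a median difference of 1 bp (-0.5 to 2 bp), with quartiles of -83.5 and 86 bp. The centres thus had no lean to the left or right, while the widths differed.

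The replicate 1 peak enclosed its partner in 12540 groups (60.5%), and the replicate 2 peak enclosed its partner in 1263 groups (6.09%). Both edges were shifted the same way in the other groups, towards lower positions in replicate 1 in 3444 and towards higher positions in 3483. Both edges were identical to the base in 1 group, although a single edge was shared to the base at 95 starts and 116 ends. Absolute differences had medians of 87 bp at starts and 88 bp at ends. Starts were within 50 bp of each other in 37.1% of groups, within 200 bp in 68.4% and within 1000 bp in 97.6%. Ends gave 36.5%, 68.8% and 97.7% at the same distances. Both edges were within 50 bp in 14.8% of groups, within 200 bp in 48.0% and within 500 bp in 77.5%.

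Start and end differences were nearly unrelated to each other. Across the 20731 groups, which come from the same 2 libraries and are not independent replicates, Spearman's rho was -0.051 for the signed differences and 0.070 for the absolute ones. In 4346 groups (21.0%) one edge was within 50 bp and the other more than 200 bp away, whereas both edges were more than 200 bp away in 2240 groups (10.8%). Where the widths differed by over 500 bp, in 5236 groups, more than 0.75 of the summed difference lay at a single edge in 3731 of them (71.3%). That share was not computed over all one-to-one groups, in which the larger and the smaller absolute edge difference had medians of 216 and 37 bp. Whether a one-sided extension was particular to large width differences was thus not tested. Among edges more than 200 bp apart, 10583 of 13023 (81.3%) had the outer edge in replicate 1.

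**Figure D2:**
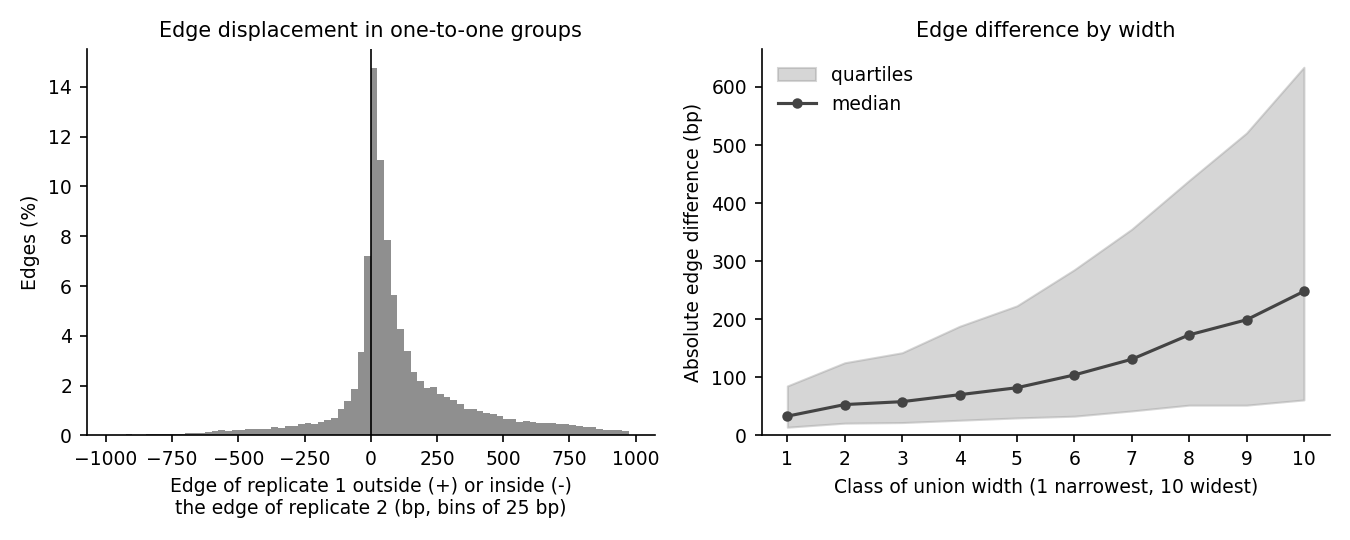
Left, share of all starts and ends in the 20731 one-to-one groups (y axis, %) by the distance of the replicate 1 edge outside (positive) or inside (negative) the replicate 2 edge (x axis, bp, bins of 25 bp). Edges 975 bp or more outside, or more than 975 bp inside, are not drawn. Right, absolute edge difference (y axis, bp, median as points and quartiles as a band) in 10 classes of union width (x axis); the median was 33 bp in class 1 and 248 bp in class 10.

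Edges of wide regions differed by more bases but by a similar share of their length. The one-to-one groups were sorted by the width of the union of both peaks into 10 classes of equal number. The median absolute edge difference was 33 bp in class 1 (unions of 173 to 583 bp), 82 bp in class 5 (1299 to 1496 bp) and 248 bp in class 10 (3187 to 10940 bp). As a share of the union these medians ran between 5.82% and 8.90% over the classes. Both edges were within 50 bp in 40.1% of class 1 and 3.71% of class 10. The share of the union covered by both replicates had a median of 74.98% in class 1, 84.2% in class 3 (876 to 1093 bp), 76.7% in class 8 and 82.3% in class 10, so it neither rose nor fell steadily with width. Replicate 1 enclosed replicate 2 in 56.6% to 64.8% of groups in every class.

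Edges that faced another peak were slightly closer between the replicates. Of the one-to-one groups, 2223 had a neighbouring peak in any replicate under 2000 bp away on one side and none within 10000 bp on the other. The absolute difference had a median of 77 bp (95% interval 70 to 83 bp) at the edge facing the neighbour and 99 bp (90 to 109 bp) at the other edge of the same peaks. The facing edge had the larger difference in 45.2% of these groups. No edge lies closer to a neighbour of its own list than the shortest gap of that list, and the part of this limit in the difference was not tested.

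Single regions show the range of these patterns. The widest one-to-one union lay on chromosome 9_10L from 94102904 to 94113843 (10940 bp), where the start in replicate 1 was 2967 bp further out and the ends differed by 179 bp. The next was on chromosome 2S from 128313180 to 128323675 (10496 bp), with differences of 546 bp at the start and 169 bp at the end, the outer edges both in replicate 1. The next after it was on chromosome 4S from 109901130 to 109911335 (10206 bp), with 1410 bp at the start and 23 bp at the end. In all 3 the end was closer than the start, and both outer edges belonged to replicate 1.

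The largest start difference was 4070 bp, on chromosome 8L from 118552060 to 118557282, where the peak was 5078 bp wide in replicate 1 and 1153 bp in replicate 2 and the ends differed by 145 bp. The 2 next were on chromosome 9_10L from 44082862 to 44091482 (4057 bp at the start, 1285 bp at the end) and on 7L from 96192513 to 96199248 (3413 bp and 909 bp). The largest end difference, 3191 bp, was on chromosome 9_10S from 66910607 to 66918462, where the starts differed by 11 bp. In the next 2, on 2S from 159724627 to 159729618 and on 7S from 85768871 to 85771821, the ends differed by 2757 and 2645 bp and the starts by 105 and 132 bp. The 7S peak was 2951 bp wide in replicate 1 and 174 bp in replicate 2. All 6 of these long extensions were in replicate 1.

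Some wide regions, by contrast, had nearly the same edges. On chromosome 6S from 20669030 to 20671768 the peak was 2737 bp wide in replicate 1 and 2736 bp in replicate 2, with 3 bp between the starts and 2 bp between the ends. On 4L from 64768636 to 64770685 the differences were 1 bp at the start and 5 bp at the end. On 3S from 55932357 to 55934365 they were 2 bp and 4 bp. These were the closest pairs of edges among unions of at least 2000 bp.

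The split peaks were wide ones. The median was 3715 bp (quartiles at 2819 and 4881 bp) for peaks whole in replicate 1 and in pieces in replicate 2, compared with 1433 bp in the one-to-one groups. None of 5781 matched replicate 1 peaks under 1000 bp was split, which allows up to 0.0664% by the Wilson interval. These shares are over peaks of one-to-one groups and of groups split in the other replicate alone, so unmatched peaks are left out. The share split was 0.487% (0.363 to 0.653%) at 1000 to 2000 bp, 3.81% (3.25 to 4.46%) at 2000 to 3000 bp and 13.3% (11.9 to 14.8%) at 3000 to 5000 bp. Above 5000 bp it was 31.7% (27.6 to 36.05%), or 148 of 467 peaks. A peak no longer than the shortest gap of the other list cannot be seen as split. A whole peak spans such a gap and overlaps the pieces beside it, so split peaks are in part wide by definition. The narrowest replicate 1 peak in pieces in replicate 2 was 1095 bp. In the other direction, replicate 2 peaks were in pieces in replicate 1 in 2.71% (1.96 to 3.73%) at 3000 to 5000 bp and 2.65% (1.14 to 6.04%) above 5000 bp. The share split was thus higher in replicate 2 in every width class from 1000 bp up. Width was taken in the replicate where the peak was whole, so a class holds different regions in the 2 directions. Splits at matched width of the same regions were not compared. More replicate 2 than replicate 1 splits were counted on 18 of 18 chromosomes. These width classes and chromosome counts include gaps under 693 bp, which the replicate 1 list does not hold.

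**Figure D3:**
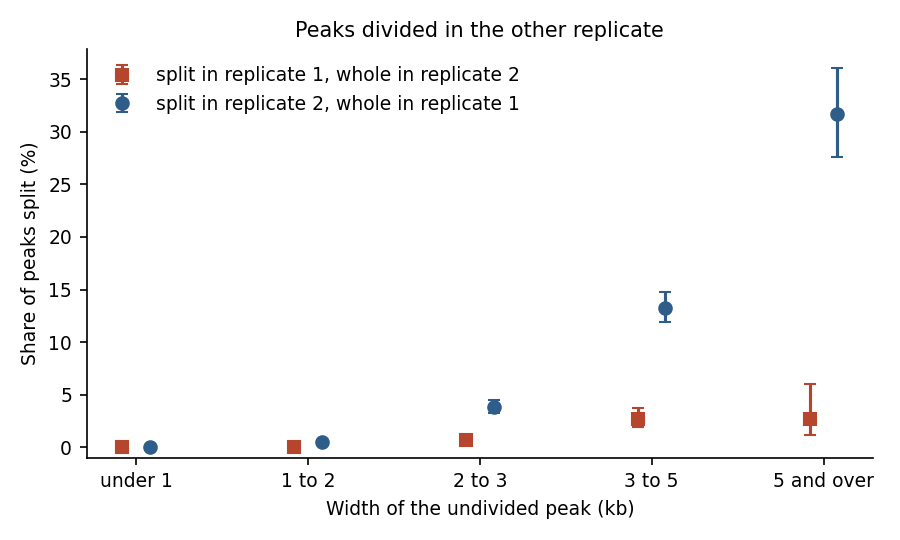
Share of peaks that were whole in one replicate and in pieces in the other (y axis, %, Wilson 95% intervals as bars) by width of the whole peak (x axis, kb). Only peaks of one-to-one groups and of groups split in the other replicate alone are counted. Red squares are splits in replicate 1 and blue circles splits in replicate 2; above 5000 bp the shares were 2.65% and 31.7%.

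The breaks were short. The 65 gaps inside whole replicate 2 peaks, seen in replicate 1, had a median of 779 bp (quartiles 735 and 862 bp). The 665 gaps inside whole replicate 1 peaks, seen in replicate 2, had a median of 806 bp (quartiles 704 and 1038 bp), and 72.6% were under 1000 bp. Of the 665, 139 (20.9%) were under 693 bp, the shortest gap in the replicate 1 list. With all gaps under 693 bp closed in both lists, 84 groups (0.392%) were split in replicate 1 and 499 groups (2.33%) in replicate 2. In the 606 groups with 2 pieces in replicate 2, the middle of the gap had a median position at 0.481 of the length of the whole peak. Of 10 equal sections of the peak, the outermost held 0.660% and 0.495% of these gaps and the others 6.44% to 16.3%. Few can fall in the outermost sections, because a gap of at least 637 bp lies wholly within the whole peak, which keeps its middle away from the ends.

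The pieces were unequal in size. In the groups split in replicate 1 the largest piece had a median of 1987 bp and the smallest 532 bp. In the groups split in replicate 2 the medians were 1744 bp and 483 bp, and the largest was a median of 3.33 times the smallest. The smallest piece was under 300 bp in 29.7% of the groups split in replicate 1 and in 29.8% of those split in replicate 2. Of all peaks, 12.4% in replicate 1 and 12.3% in replicate 2 were under 300 bp, but the smallest of several pieces is narrow by its choice. Wider and narrower members of pairs less than 2000 bp apart had similar medians, 1758 and 477 bp in replicate 1 and 1588 and 438 bp in replicate 2. The pieces of replicate 2 covered a median of 64.9% of the whole peak in replicate 1, and their outermost edges were a median of 126 bp from its edges. One-to-one groups of similar width had medians of 199 bp (unions of 2435 to 3186 bp) and 248 bp (unions of 3187 to 10940 bp).

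No replicate 1 peak held more than 4 peaks of replicate 2, and 3 held that many. One was the widest replicate 1 peak, on chromosome 3L from 123264958 to 123279336 (14379 bp). Replicate 2 had 4 peaks there, of 1237, 2048, 2392 and 4460 bp, with gaps of 2137, 639 and 1521 bp between them. Together they ran from 123264935 to 123279368, slightly beyond the replicate 1 peak on both sides. On chromosome 1S from 126978863 to 126991593 (12731 bp) replicate 2 also had 4 peaks, of 3101, 343, 3391 and 2519 bp. On 3S from 1596890 to 1605184 (8295 bp) it had 4 again, with gaps of 745, 856 and 690 bp, and the outer peaks were 172 bp and 231 bp wide.

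In the opposite direction, the replicate 2 peak on chromosome 8L from 1338556 to 1347455 (8900 bp) corresponded to 3 replicate 1 peaks of 1514, 5394 and 519 bp, with gaps of 729 and 792 bp. The widest replicate 2 peak, on 6L from 88818804 to 88829624 (10821 bp), overlapped 2 replicate 1 peaks of 8073 and 5166 bp, 965 bp apart, the first of which began outside it, at 88815436. On 2L from 76044603 to 76053888 (9286 bp) 2 replicate 1 peaks of 7235 and 3947 bp lay 713 bp apart. The second ended beyond the replicate 2 peak, at 76056456. The widest replicate 2 peak split in replicate 1 alone was 8900 bp. The 6L and 2L groups thus held several peaks of both replicates and are not among the 64 split in replicate 1 alone. At 6L both replicates broke the same marked stretch, at different places.

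**Figure D4:**
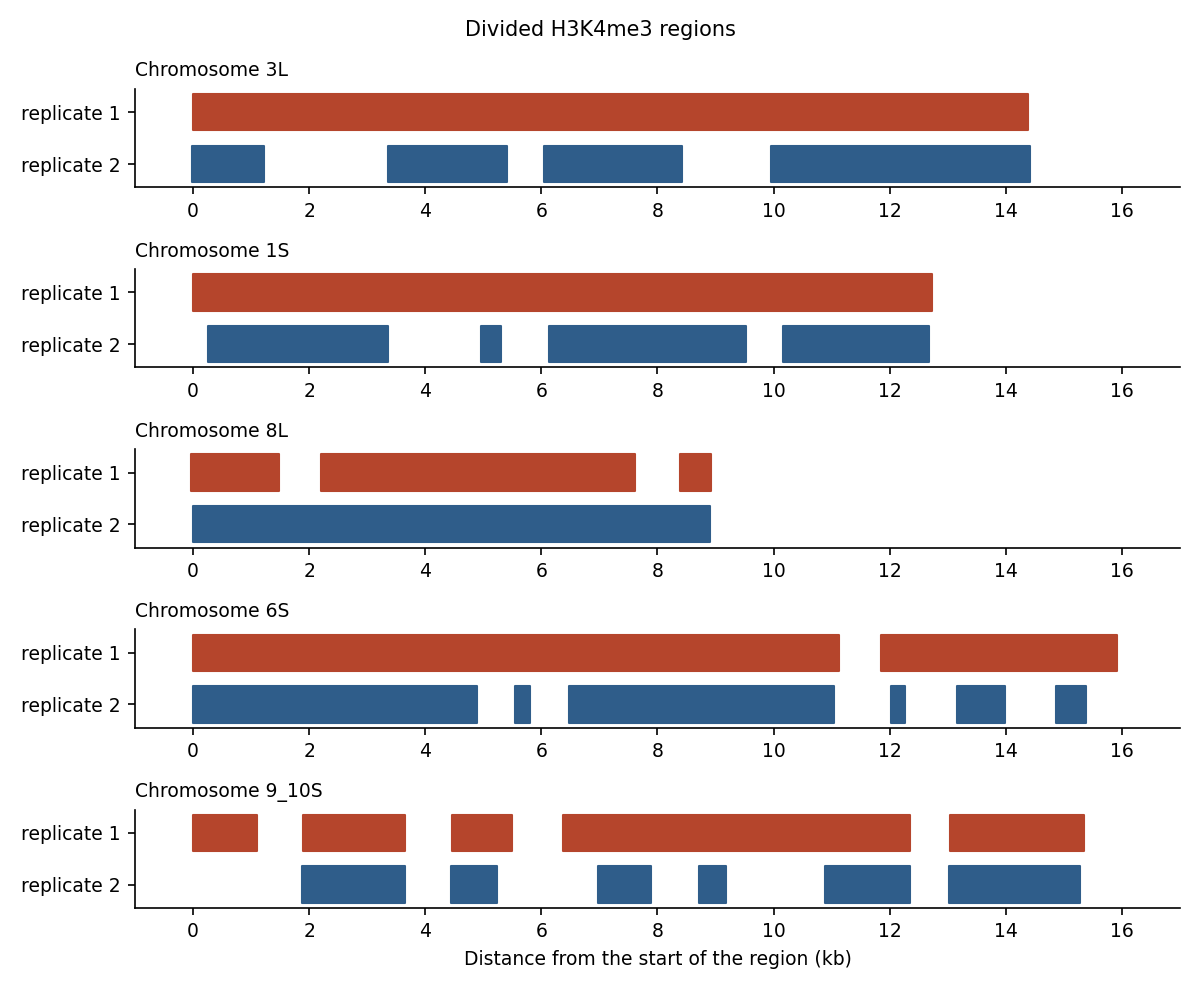
Peaks of replicate 1 (red, upper bar of each panel) and replicate 2 (blue, lower bar) in 5 divided regions, by distance from the start of the region (x axis, kb). From top to bottom these are the widest replicate 1 peak on 3L, a replicate 1 peak on 1S with 4 replicate 2 peaks, a replicate 2 peak on 8L with 3 replicate 1 peaks, and the runs of most peaks in replicate 2 (6S, 6 peaks) and replicate 1 (9_10S, 5 peaks).

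Runs of peaks less than 1000 bp apart were short. In replicate 1 the run with most peaks had 5, on chromosome 9_10S from 16692228 to 16707578, with gaps of 694 to 880 bp. Replicate 2 had 6 peaks there: it lacked the first peak of replicate 1, had the next at edges 16694111 and 16695874 (16694116 and 16695880 in replicate 1), and held the 5968 bp peak as 3 pieces of 911, 465 and 1465 bp. In replicate 2 the run with most peaks had 6, on 6S from 62507388 to 62522778, with gaps of 652 to 986 bp. There replicate 1 had 2 peaks, of 11132 and 4059 bp, separated by 736 bp. In all, 2073 replicate 1 peaks (7.17%) and 1737 replicate 2 peaks (7.19%) had a neighbour under 1000 bp away.

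Spacing between neighbours was wide and uneven. The median gap was 39.6 kb in replicate 1 (95% interval 38.8 to 40.5 kb, quartiles 11.3 and 100.3 kb), 48.8 kb in replicate 2 (47.8 to 49.8 kb, quartiles 15.7 and 121.1 kb) and 52.6 kb in the series-wide list. It was shorter in replicate 1 on 18 of 18 chromosomes, but replicate 1 also had more peaks on each, and more peaks on the same chromosome leave shorter gaps. With equal numbers of widest peaks the medians were 47.1 kb (46.1 to 48.1 kb) in replicate 1 and 48.8 kb (47.8 to 49.8 kb) in replicate 2, with overlapping intervals. Among peaks that overlapped the other replicate, an alternative chosen after seeing the data, the order turned round, with 55.0 kb in replicate 1 and 53.0 kb in replicate 2. These were 21515 replicate 1 and 22115 replicate 2 peaks of the same overlap groups, and each further piece of a split peak adds a short gap. Gaps common to both lists, described below, were shorter in replicate 1. Gaps under 1000 bp made up 3.67% (3.46 to 3.89%) of all gaps in replicate 1 and 3.69% (3.46 to 3.93%) in replicate 2, with overlapping intervals. The ranges differ, because these gaps began at 693 bp in replicate 1 and at 637 bp in replicate 2. At 600 to 699 bp replicate 1 had 27 gaps and replicate 2 had 224. Gaps under 10000 bp made up 23.3% (22.9 to 23.8%) in replicate 1 and 19.03% (18.5 to 19.5%) in replicate 2. Gap number was highest just above the shortest length and declined with length: replicate 1 had 434 gaps at 700 to 799 bp, 257 at 1000 to 1099 bp and 100 at 2000 to 2099 bp, and replicate 2 had 275, 161 and 59.

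Similar shares of gaps under 1000 bp did not mean the same gaps. These gaps covered unlike ranges, from 693 bp in replicate 1 and from 637 bp in replicate 2. Each gap was followed into the other replicate, where its flanking peaks could both be present as neighbours, be absent, be separated by a further peak, or be bridged by a single peak; a gap with an absent flank was counted as that first. Of the 1060 gaps under 1000 bp in replicate 1, 34.6% (31.8 to 37.5%) had the same neighbours in replicate 2, 59.2% (56.2 to 62.1%) lacked a flanking peak there and 6.23% (4.92 to 7.85%) were bridged. Of the 890 in replicate 2, 27.9% (25.0 to 30.9%) had the same neighbours in replicate 1, 17.2% (14.9 to 19.8%) lacked a flanking peak and 54.9% (51.7 to 58.2%) were bridged. Over gaps of all lengths, a flanking peak was lacking for 44.3% in replicate 1 and 16.1% in replicate 2, and 0.263% and 2.80% were bridged. Of the 890 short gaps of replicate 2, 54.9% thus lay within a single replicate 1 peak. Their share with a lacking flank was near that of all replicate 2 gaps. The 890 include gaps under 693 bp, a length at which the replicate 1 list holds none, and the share bridged without them was not computed.

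The balance changed with gap length. Bridging was seen for 17.8% of replicate 2 gaps of 1000 to 2000 bp, 1.20% of those of 2000 to 5000 bp and none of the longer ones. The same neighbours were most often kept for replicate 2 gaps of 2000 to 5000 bp, at 79.3% (77.0 to 81.5%). Replicate 2 gaps of 100000 bp or more held a further replicate 1 peak in 32.0% (30.9 to 33.1%). Over all lengths, 14990 pairs of neighbours were common to both lists, which is 51.9% of the gaps in replicate 1 and 62.1% of those in replicate 2.

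**Figure D5:**
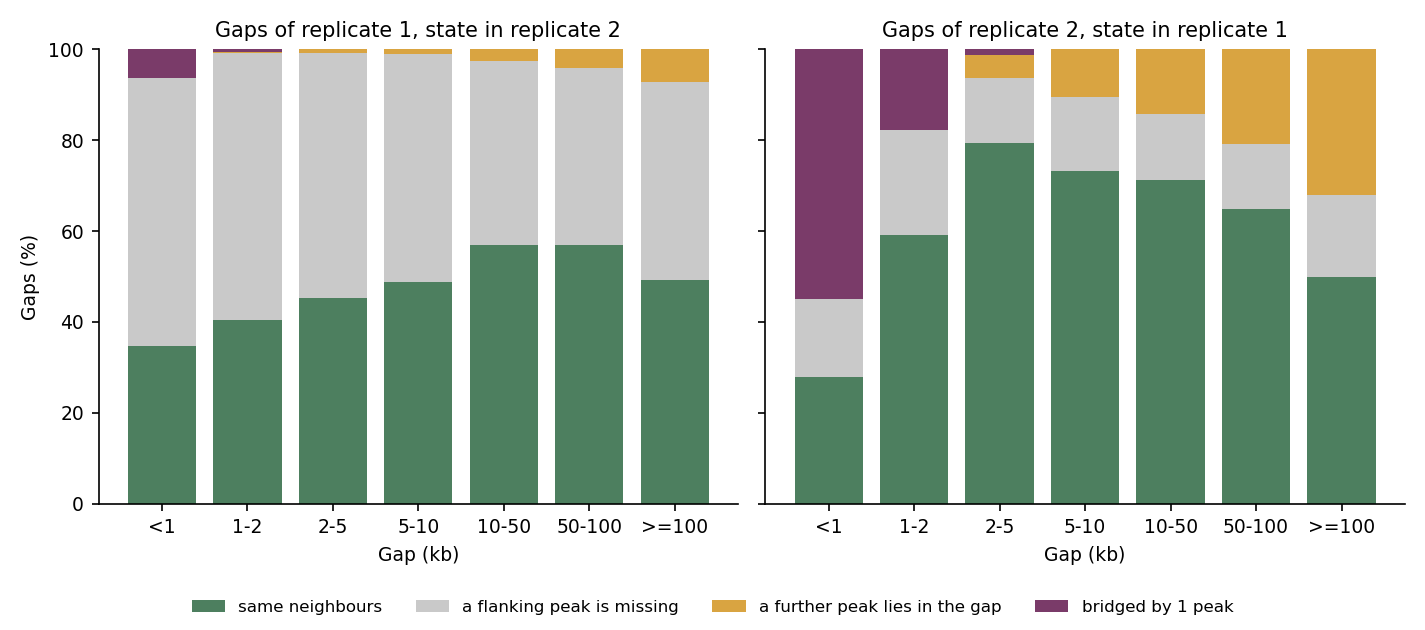
State in the other replicate of each gap between neighbouring peaks (y axis, share of gaps in %) by gap length (x axis, kb), left for gaps of replicate 1 and right for gaps of replicate 2. Bridged gaps made up 6.23% of replicate 1 and 54.9% of replicate 2 gaps under 1000 bp, which began at 693 and 637 bp.

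Gaps common to both lists were shorter in replicate 1, by close to the 162 bp by which its peaks were wider, and the median difference in centre-to-centre distance was near 0. Among 14102 gaps flanked by one-to-one groups on both sides, the gap was a median of -161 bp in replicate 1 relative to replicate 2 (95% interval -168 to -156 bp) and was shorter in replicate 1 in 79.8%. The centre-to-centre distance had a median difference of 1 bp (-3.5 to 4.5 bp), with quartiles of -161 and 160.5 bp. For the 810 gaps averaging under 2000 bp, the median difference of the gap was -96 bp (-110 to -76 bp) and that of the centres 21 bp (6.5 to 44 bp). Among these 810 pairs the centres were therefore slightly further apart in replicate 1. Close neighbours joined into a single peak in either replicate are not among the 810. The part of this selection in the difference was not tested.

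A narrow peak beside a wide one was a minority of close pairs, but a larger share of them than of all neighbouring pairs. Of the pairs less than 2000 bp apart, 2534 in replicate 1 and 1854 in replicate 2, the wider member had a median of 1758 bp and 1588 bp, and the narrower 477 bp and 438 bp. A narrow peak under 500 bp beside one of at least 1000 bp made up 34.8% of these pairs in replicate 1 and 37.0% in replicate 2. Over all neighbouring pairs the shares were 25.4% (24.9 to 25.9%) in replicate 1 and 21.9% (21.4 to 22.4%) in replicate 2. Both members reached 1000 bp in 18.5% of close pairs in replicate 1 and 15.3% in replicate 2, against 32.04% and 30.6% of all pairs.

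Fewer domains than peaks were split once neighbours were joined, which follows in part from the joining itself. Joining closes the short gaps that divide split peaks, and 84.6% of these gaps in replicate 1 and 72.6% in replicate 2 were under 1000 bp. With peaks less than 1000, 2000, 5000, 10000 and 20000 bp apart joined in each list, replicate 1 had 27866, 26392, 24357, 22177 and 18998 domains and replicate 2 had 23264, 22300, 21051, 19560 and 17175. The share of overlapping domains that matched one-to-one was 98.3%, 98.8%, 98.95%, 98.7% and 98.1% at these distances, against 96.7% for the peaks. At 5000 bp, 17 domains were split in replicate 1 alone and 184 in replicate 2 alone, against 64 and 634 groups of peaks. Domains of several peaks held 27.7% of the peaks of replicate 1 and 23.3% of the peaks of replicate 2 at 5000 bp. The outer limits kept a median edge difference of 92 bp at 1000 bp and 112 bp at 20000 bp.

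Most matched domains held the same number of peaks in both replicates. At 5000 bp this was so in 16606 of 19148 matched domains (86.7%), 8.54% had more peaks in replicate 1 and 4.74% had more in replicate 2. Most of the equal ones had 1 peak in each list. Of the 3764 matched domains at 5000 bp with more than 1 peak in at least one list, 43.4% (41.9 to 45.03%) had more peaks in replicate 1, 24.1% (22.8 to 25.5%) had more in replicate 2 and 32.5% (31.0 to 34.0%) had the same number. The domains with most peaks, picked out after their values were seen, were both on 5L at this distance. That of replicate 1 ran from 158361579 to 158396157, with 12 peaks where replicate 2 had 7, and that of replicate 2 from 104302599 to 104324124, with 8 peaks where replicate 1 had 7. At 10000 bp both lists had their domain with most peaks on 3L. That of replicate 1 held 25 peaks from 129106731 to 129222433, where replicate 2 had 21. That of replicate 2 was shorter and held 19 peaks from 129132072 to 129217293, where replicate 1 also had 19.

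Peaks found in one replicate alone could seldom lie close to a peak of the other list. Most peaks of each list overlapped one of the other, and peaks of 1 list are at least 693 or 637 bp apart, which leaves little room beside a matched peak. Of these single peaks, 11 of 7411 single peaks of replicate 1 and 11 of 2039 of replicate 2 lay within 100 bp of a peak of the other list, and 6.06% and 11.4% lay within 1000 bp. Their median distance to the other list was 16.0 kb in replicate 1 and 17.9 kb in replicate 2. Single peaks of replicate 1 stood closer to other peaks of their own list than recurring ones did, with medians of 11.1 and 18.8 kb and with 35.9% (34.8 to 37.0%) and 24.9% (24.3 to 25.4%) having a neighbour under 5000 bp away. In replicate 2 the medians were 21.1 and 22.0 kb, and the shares were 26.7% (24.8 to 28.6%) and 23.0% (22.4 to 23.6%). Wide single peaks of at least 1000 bp were few, 578 in replicate 1 (7.80%) and 45 in replicate 2 (2.21%). Among recurring peaks the shares of that width were 72.8% in replicate 1 and 60.0% in replicate 2, and among all peaks 56.2% and 55.1%.

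As an intersection, the series-wide list carries over the splits of both replicates. Its 22191 intervals came from 21439 groups: 20731 from one-to-one groups, 129 from groups split in replicate 1, 1299 from groups split in replicate 2 and 32 from groups with several peaks in both. An interval kept a median of 84.7% of the replicate 1 peak (quartiles 69.02 and 94.7%) and 100.0% of the replicate 2 peak (quartiles 96.7 and 100.0%) in one-to-one groups. It has both edges of the replicate 2 peak wherever replicate 1 encloses replicate 2, in 60.5% of these groups. Of the 41.2 Mb covered in replicate 1, 71.9% was in the series-wide list, 17.02% was trimmed from the edges of one-to-one peaks, 2.29% was lost at the edges and gaps of split groups and 8.83% lay in single peaks. Of the 31.9 Mb of replicate 2, the shares were 92.8%, 4.53%, 0.394% and 2.29%.

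The chromosomes differed in spacing but little in how the replicates matched. Xenopus laevis is allotetraploid, and its chromosomes form pairs of a longer (L) and a shorter (S) member from different ancestors. Over the 18 chromosomes the median start difference ranged from -60.5 bp on 6S to -48 bp on 1S and 5L, and the median end difference from 47 bp on 1S and 5S to 64 bp on 6S. The one-to-one share was lowest on 8S, at 95.1%, and highest on 3S, at 97.5%. Chromosome 8S also had the highest shares of groups split in replicate 1 (0.965%) and in replicate 2 (3.86%). These were 10 and 40 of 1036 groups. Counts of groups split in replicate 1 were small on every chromosome, from 0 on 6S to 10 on 8S. Median gaps were shortest on 8L, at 28.4 kb in replicate 1 and 36.2 kb in replicate 2, and longest on 5S, at 52.5 and 66.7 kb.

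Median gaps were shorter on the L chromosome of most pairs. In replicate 1 they averaged 38.4 ± 6.9 kb on L and 42.0 ± 6.8 kb on S (SD over 9 chromosomes each), a difference within pairs of -3.59 ± 3.82 kb. In replicate 2 they averaged 48.2 ± 7.9 kb on L and 51.5 ± 9.0 kb on S, a difference of -3.27 ± 4.02 kb. L had the shorter gap in all but 2 of the 9 pairs in each replicate, the exceptions being pairs 4 and 7. Median start differences averaged -52.0 ± 3.6 bp on L and -54.3 ± 4.9 bp on S, and median end differences 54.6 ± 3.9 bp on L and 55.0 ± 5.8 bp on S. No test was made of the L and S values, since the chromosomes share the same 2 libraries.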

How the data were processed

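Peak positions of both H3K4me3 ChIP-seq samples were analysed; the 9 other samples were not used here. The submitters' processing notes name bedtools, MACS2 (version 2.1.0.20140616) and BWA (version 0.7.10-r789), without their roles. Not given in the sources used here are settings, threshold, control and genome build. The deposited lists of positions (0-based starts, printed here 1-based) hold chromosome, start and end without a header, signal or score, so read depth is unknown. The series-wide list was recomputed: all 22191 of its intervals on the L and S chromosomes had the exact limits of the overlap between 1 peak of each replicate.

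Peaks overlapping by at least 1 bp were joined into overlap groups in Python (3.11.15; numpy 2.4.6, scipy 1.17.1, matplotlib 3.10.9 for plots). Differences are replicate 1 minus replicate 2. Shares carry Wilson 95% intervals and medians carry order-statistic 95% intervals. Both assume independent peaks and describe counting error alone. With 1 list per replicate there was no test over samples. The functions were tested on simulated lists. Named regions were taken by rank: the 3 widest one-to-one unions, the 3 largest start and end differences, the 3 closest unions of at least 2000 bp, the 3 peaks over most peaks of the other replicate, and the 3 runs of most peaks under 1000 bp apart. The regions, lists and measures were chosen with earlier results of these data known.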

Additional observations from a re-analysis of the deposited data

How the results depend on the processing

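Values within the 95% counting interval of the main result were taken as unmoved, which held for 25 values, while 31 moved. Some of the 25 could not move, as given below. No start or end difference changed sign, and shares and gaps cannot be negative. The order of the replicates' median gaps turned for peaks overlapping the other replicate. That alternative and the closing of gaps under 693 bp were chosen after seeing the data. Start and end differences were -57 and 59 bp for peaks of at least 500 bp, -59 and 61 bp for equal numbers of widest peaks, and -46 and 48 bp with scaffolds. The one-to-one share was 98.3% with neighbours under 1000 bp apart joined, 96.9% with a 50% overlap, 98.0% for peaks of at least 500 bp and 97.2% with gaps under 693 bp closed. Splits in replicate 1 were 0.204% joined at 1000 bp, 0.203% for peaks of at least 500 bp, 0.203% for equal numbers and 0.392% with gaps under 693 bp closed; splits in replicate 2 were 1.54% joined at 1000 bp, 1.80% for peaks of at least 500 bp and 2.33% with those gaps closed. Median gaps in replicate 1 were 42.6 kb joined at 1000 bp, 51.4 kb for peaks of at least 500 bp, 47.1 kb for equal numbers, 38.4 kb with scaffolds and 55.0 kb for peaks overlapping the other replicate. In replicate 2 they were 52.2 kb joined, 61.6 kb for peaks of at least 500 bp, 47.5 kb with scaffolds and 53.0 kb for overlapping peaks. In the series-wide list they were 55.7 kb joined, 63.8 kb for peaks of at least 500 bp and 51.3 kb with scaffolds, and leaving out a replicate gave 39.6 to 48.8 kb. Joining neighbours under 200 bp apart changed nothing, because no list has such gaps. Closing gaps under 693 bp likewise could not move the median gap in replicate 1. With equal numbers of widest peaks, the replicate 2 and series-wide lists stayed whole, so their median gaps could not move. These values are among the 25 and say nothing about stability. The cause of the shifts was not tested. No paired analysis was possible because the comparison is between the replicate numbers themselves. Leaving out a replicate gives no value for the differences between replicates. Read depth is unknown and limits which edges and gaps could be called.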

Other observations

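Peaks on scaffolds, which have no L or S name, numbered 3895 in replicate 1 and 3113 in replicate 2. Of their 2696 overlap groups with both replicates, 97.9% held 1 peak of each, 6 were split in replicate 1 and 51 in replicate 2. Median absolute differences were 26 bp at starts and 24 bp at ends, against 87 and 88 bp on the L and S chromosomes. In 675 of the 2639 one-to-one groups the starts were identical, and in 666 of these both peaks began at the first base of the scaffold. Median widths of scaffold peaks were 556 bp in replicate 1 and 562 bp in replicate 2. On the L and S chromosomes narrow regions also had close edges. Median absolute edge differences there were 33 bp for unions of 173 to 583 bp and 53 bp for unions of 584 to 875 bp. Scaffolds and chromosomes were not compared at matched width.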
